A study of Mus musculus with 6 samples.

Results

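The genes described here are 39 proliferation genes whose products copy DNA in S phase or divide the cell in mitosis. They were chosen by symbol, and every probe annotated with 1 of these symbols on an Illumina mouse bead array was looked up. Of the 39 genes, 24 were measured, which here means a detection p-value under 0.05 on at least 2 of 6 arrays; 14 had a probe but were not measured and 1, Ccnb1, had no probe. Among all 21946 named genes with a probe, 10530 were measured (48.0%), against 63.2% of the 38 members with a probe. Each measured gene is represented by its probe with the highest mean level, and levels are log2 intensities as the authors normalized them.

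The RNA came from pancreatic islets of BALB/c mice given a monoclonal antibody against serpin B13 (clone B29), a protease inhibitor, or a control antibody (IgG). Dosing was intraperitoneal on alternate days, with 25 µg each time and 4 doses to a total of 100 µg, starting at 2 weeks of age. The mice were killed at 5 weeks, 2 weeks after the final dose. Islets were sorted by diameter into under 100 µm, 100 to 200 µm and over 200 µm, and 1 array was run for each antibody and class. The question put by the design was how B29 and IgG islets of each size differ. The labels do not give the number or sex of the mice, whether animals were pooled, or whether the 3 classes came from the same mice. The standard errors below rest on how far the antibody difference varied between diameter classes, moderated by the spread of all probes, and not on a spread between mice.

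Dividing cells make most of these transcripts in waves. Origin licensing and nucleotide synthesis genes, many of them targets of E2F factors, come up before and during S phase, and the mitotic kinases, cyclins and spindle proteins follow in G2 and M. Adult islet beta cells divide rarely, whereas islets of young mice still grow partly by beta cell division. In whole islets, fewer dividing cells and less of a transcript per dividing cell cannot be told apart.

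The promoters are shown because the S phase and mitotic genes are known for different control sequences. RefSeq promoter windows (assembly GRCm38.p6, 250 bases before to 50 bases after the gene start) matched 31 of the 39 genes. Both strands were searched for 3 motifs. The cell cycle homology region (CHR, TTTGAA or TTTAAA) is known as a site of the MuvB complex in G2 and M genes, CCAAT is bound by NF-Y, and TTGGCGC or TTCCCGC or TTGCCGC or TTCGCGC are letters typical of E2F sites. A CHR was present in 14 of 16 mitotic genes (87.5%) and 5 of 12 S phase genes (41.7%), against 30.6% of all 27025 promoters. An E2F motif was present in 6 of 12 S phase genes and 1 of 16 mitotic genes (6.25%), against 10.9% of all promoters. CHR and CCAAT stood together in 19 of the 31 (61.3%), against 12.2% of all. Mki67 and Tyms were the only 2 of 24 measured members (8.33%) whose B29 and IgG levels did not overlap, against 9.11% of all probes. Cenpa had the widest gap within a class, and the cyclin gene Ccnb2 was detected on no array. The windows of these 4 genes follow, with motifs in capitals.
Mki67: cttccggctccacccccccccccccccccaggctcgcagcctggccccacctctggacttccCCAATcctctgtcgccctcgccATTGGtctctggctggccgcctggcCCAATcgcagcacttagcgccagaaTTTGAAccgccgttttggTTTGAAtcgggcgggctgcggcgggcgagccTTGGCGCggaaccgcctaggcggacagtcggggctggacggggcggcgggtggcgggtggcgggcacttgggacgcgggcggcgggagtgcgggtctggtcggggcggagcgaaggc
Tyms: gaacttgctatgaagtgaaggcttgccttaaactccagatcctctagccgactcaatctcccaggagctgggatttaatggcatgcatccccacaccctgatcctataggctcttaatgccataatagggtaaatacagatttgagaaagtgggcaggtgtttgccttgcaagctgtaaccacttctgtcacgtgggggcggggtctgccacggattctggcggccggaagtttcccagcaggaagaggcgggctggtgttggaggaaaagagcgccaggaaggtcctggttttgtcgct
Cenpa: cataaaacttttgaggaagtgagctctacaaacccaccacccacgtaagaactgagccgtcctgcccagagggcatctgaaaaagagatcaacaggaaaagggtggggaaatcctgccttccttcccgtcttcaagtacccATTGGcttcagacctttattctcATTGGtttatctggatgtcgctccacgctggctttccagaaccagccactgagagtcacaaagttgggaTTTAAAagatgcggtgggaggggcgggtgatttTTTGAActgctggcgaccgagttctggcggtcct
Ccnb2: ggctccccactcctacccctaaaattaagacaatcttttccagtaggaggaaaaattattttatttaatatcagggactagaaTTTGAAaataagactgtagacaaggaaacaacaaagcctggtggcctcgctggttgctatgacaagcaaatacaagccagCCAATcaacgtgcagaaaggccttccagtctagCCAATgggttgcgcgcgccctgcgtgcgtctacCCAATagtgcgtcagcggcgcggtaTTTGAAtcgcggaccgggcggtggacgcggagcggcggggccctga

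These windows lie at chr7:135716330-135716629 (minus strand) for Mki67, chr5:30073576-30073875 (minus strand) for Tyms, chr5:30666636-30666935 (plus strand) for Cenpa and chr9:70421505-70421804 (minus strand) for Ccnb2. ATTGG is CCAAT read on the other strand, and no motif overlaps another in them, apart from TTTAAA in Cenpa, which reads alike on both strands. The Mki67 window holds 2 CHR motifs, which start 116 and 98 bases upstream of the gene start, and an E2F motif that starts 67 bases upstream. The Tyms window holds none of the letters searched. Among the members with a window, a CHR was found in 14 of 21 that were measured (66.7%) and in 8 of 10 that were not (80.0%).

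Which genes were measured is given here by role. Of the 7 genes of origin licensing and the replication fork, 6 were measured (Mcm2, Mcm4, Mcm5, Mcm6 and Mcm7, subunits of the MCM helicase, and Pcna, the sliding clamp). Of the 4 genes of deoxynucleotide synthesis, 3 were: Rrm1, a ribonucleotide reductase subunit, Tyms, thymidylate synthase, and Tk1, thymidine kinase. The transcription factor E2f1 was measured, whereas the S phase cyclins Ccne1 and Ccne2 were not. The mitotic cyclins Ccna2 and Ccnb2 were not measured either, although Foxm1, the transcription factor of G2 and M genes, was. Of the 5 mitotic kinases and checkpoint kinases, 4 were measured (Plk1, Aurka, Aurkb and Bub1b), as were both chromosomal passenger proteins, Birc5 and Cdca8. The anaphase activator Cdc20, the centromeric histone Cenpa and the spindle proteins Nusap1 and Prc1 were measured. The motor genes Cenpe, Kif11 and Kif20a, along with Bub1, Ube2c, Cenpf and Tpx2, were detected on 0 arrays. Mki67, Top2a (topoisomerase II) and Hmgb2 (a chromatin protein) were measured.

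By phase, 10 of 14 S phase genes and 11 of 21 mitotic genes were measured. The threshold of 2 arrays decided 5 genes: Pcna and Aurkb, each detected on 2 arrays, lay just inside it, and Mcm3, Rrm2 and Stmn1, each detected on 1, just outside. Mcm7 was detected on 5 arrays, and the other 21 on all 6. An array detected between 22 and 24 of the 38 genes with a probe, so neither an antibody nor a size class stood apart in this count.

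**Figure D1:**
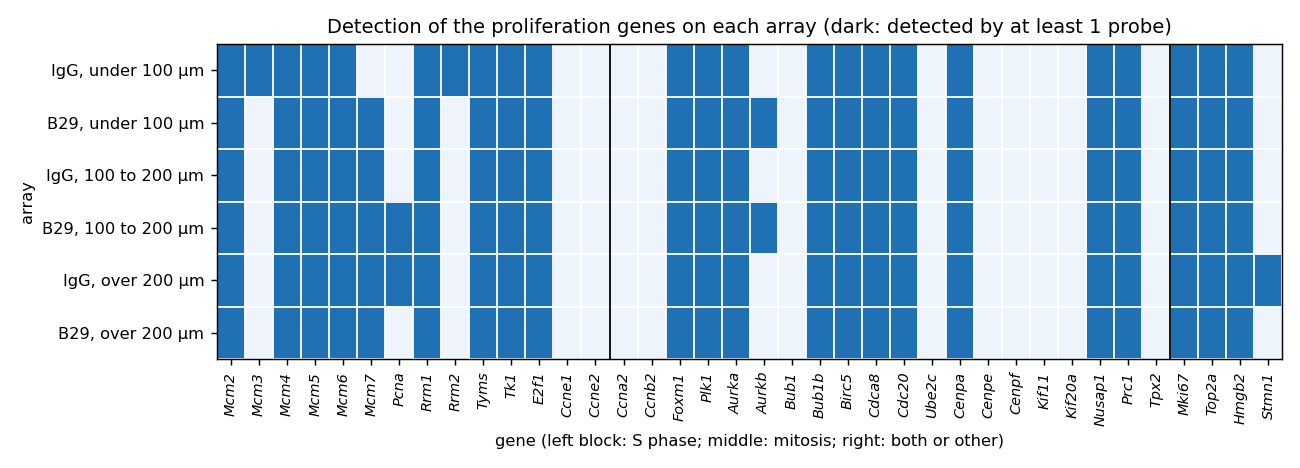
Detection of the 38 genes that have a probe (columns) on the 6 arrays (rows). A dark cell marks a gene that at least 1 probe detected at a detection p under 0.05, and the 3 blocks separate S phase genes, mitotic genes and the 4 that belong to both or neither. Most columns are dark on all 6 arrays or on none.

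All members were dim. The raw intensities of the measured probes ran from 71.9 (Pcna) to 226.0 (Cenpa), while the median raw intensity of the control rows was 71.3 to 73.9 on the 6 arrays. The Ki-67 gene Mki67, the usual marker of cycling cells, had raw intensities of 92.3 to 127.3. On the normalized scale an array's median probe stood at 4.29. The values equal those of a normalization that adds 16 to each intensity, which shrinks the ratios of such dim probes. With 1 added in place of 16, the ratio of Tk1 in the under 100 µm pair was 1.02 where it had been 0.53 on the log2 scale. Ratios of all probes widened too: 6.38% were at least 2-fold apart in that pair with 1 added, against 0.596% with 16. Which of the 2 scales gives the truer ratio was not tested.

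B29 and IgG were compared over the 3 classes in 1 limma fit with antibody and class as factors. None of the 24 genes passed an adjusted p of 0.05, where 1 of 16774 probes did (0.00596%). At an unadjusted p under 0.05, 1 member passed, Tyms (4.17% of members), against 4.67% of all probes. The fitted B29 minus IgG log2 ratio had a median of 0.04 over the 24 genes and 0.00 over all probes, and 16 of 24 were above 0, against 49.9% of probes. This median turned to -0.05 without either array of the 100 to 200 µm class, and 8 of 24 were then above 0.

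Tyms, the enzyme that makes thymidylate for DNA, was the member with the largest fitted difference. Its IgG levels were 6.66, 6.21 and 6.21 in the under 100, 100 to 200 and over 200 µm classes, and its B29 levels were 6.15, 6.08 and 5.56. Every B29 array lay below every IgG array, a separation that 9.11% of all probes showed in 1 direction or the other and 2 of the 24 members (8.33%) showed. The fitted log2 ratio was -0.43 (SE 0.15, 3 arrays per antibody), 1.35-fold lower with B29, with an unadjusted p of 0.0173 and an adjusted p of 0.966 by limma. Tyms has 5 probes on the array, and this was the only one measured.

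Mki67 was the other gene without overlap, in the opposite direction. Its IgG levels were 5.33, 5.39 and 5.38 in order of increasing diameter, and its B29 levels were 5.48, 5.92 and 5.55. The 3 IgG arrays were nearly level, and the 100 to 200 µm B29 array was the highest. The fitted log2 ratio was 0.29 (SE 0.14), 1.22-fold higher with B29, and did not pass the limma test (adjusted p 0.966). That B29 array also stood apart in immune transcripts. The summed intensity of the 3 measured B and plasma cell markers was 741 on it and 63 to 79 on the other 5, and that of 4 pan-leukocyte markers was 476 against 150 to 171. These are 3 of 8 and 4 of 6 listed markers, and Ptprc, Ms4a1 and Cd79a were not among the measured genes. The 8 measured macrophage markers, of 10, summed to 339 on it and 260 to 285 on the others. The part of these cells in the Mki67 level was not tested. Without that array and its partner, the Mki67 ratio was 0.16 in the under 100 µm class and 0.17 in the over 200 µm class.

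Few other members kept 1 direction. B29 lay on the same side of IgG in all 3 classes for 5 of 24 members (20.8%), against 25.5% of all probes. It was higher for Mki67 and Birc5 and lower for Tyms, Plk1 and Nusap1. Over 200 µm the log2 ratio was only 0.01 for Birc5 and -0.01 for Plk1. Neither of the other measured Birc5 probes kept 1 direction (0.01, 0.25 and -0.57, and -0.08, -0.15 and 0.23, in order of diameter). The other 19 members changed sign between classes, among them all of the measured MCM genes. Mcm2 stood at 5.07 with IgG and 5.77 with B29 in islets under 100 µm, at 5.94 and 5.52 at 100 to 200 µm, and at 5.33 and 5.73 over 200 µm, so B29 was higher in the smallest and largest islets and lower in between. Mcm4 gave a log2 ratio of -0.03, 0.69 and -0.54 in the same order, and Mcm5 gave 0.42, 0.33 and -0.55. Among the S phase genes 9 of 10 had a fitted ratio above 0 (median 0.08), and among the mitotic genes 4 of 11 (median -0.03). The S phase and mitotic medians were not tested against each other.

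Other S phase genes did not separate the antibodies. E2f1, which switches on the genes of S phase, had IgG levels of 6.81, 6.69 and 6.77 and B29 levels of 6.92, 6.94 and 6.44 in order of diameter. The over 200 µm B29 array was its lowest, and the fitted ratio was 0.01 (SE 0.15). Tk1, which salvages thymidine, had IgG levels of 4.72, 4.86 and 5.08 and B29 levels of 5.26, 5.19 and 4.85, so the IgG levels went up with diameter where the B29 levels went down. That difference between the antibodies was not tested, and the fitted Tk1 ratio was 0.21 (SE 0.17). Pcna was detected only on the B29 array of 100 to 200 µm (4.67) and the IgG array over 200 µm (4.54). On the other 4 arrays it was not well above background.

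Other mitotic genes did not separate them either. Aurka, the spindle pole kinase, had IgG levels of 5.24, 5.22 and 5.36 and B29 levels of 4.95, 5.30 and 5.21, with a fitted ratio of -0.12 (SE 0.14). Aurkb, the kinase of the chromosomal passenger complex, was detected on the B29 arrays under 100 µm (4.54) and at 100 to 200 µm (4.63), and was not well above background on the other 4. Neither of these B29 arrays had an IgG partner that detected it. The probe that represents Bub1b, which holds back anaphase until chromosomes are attached, spanned only 0.20 log2 units over the 6 arrays, from 4.77 to 4.96. That of Cdc20 spanned 0.27, from 5.26 to 5.53, and that of Nusap1, which stabilises spindle microtubules, also 0.27, from 5.19 to 5.46. Other measured probes of Bub1b and Cdc20 ranged more widely. A Bub1b probe ran from 4.47 to 4.88, and Cdc20 probes ran from 4.61 to 5.33 and from 4.55 to 5.36. Tyms, by contrast, had the widest span of the 24 measured members. Ccnb2, whose promoter is shown above with 2 CHR and 3 CCAAT motifs, had raw intensities of 69.3 to 75.4, within those of background, and detection p-values of 0.295 to 0.937.

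**Figure D2:**
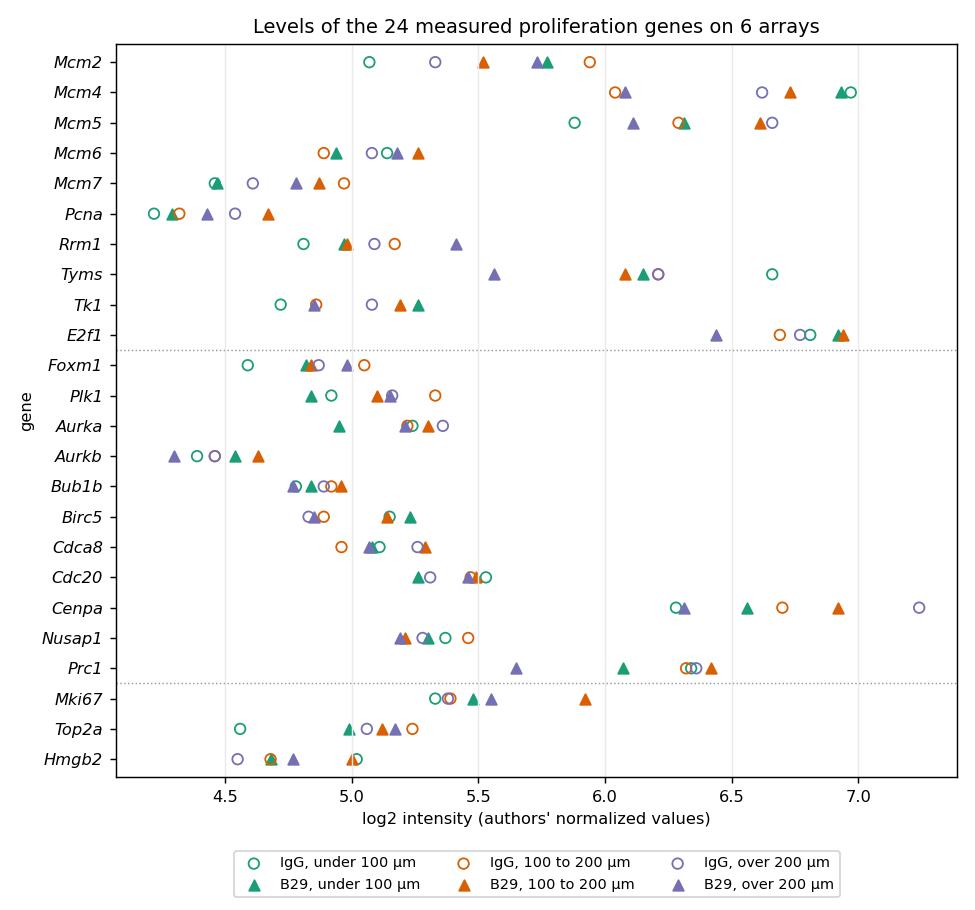
Levels of the 24 measured genes (rows) on the 6 arrays, as the authors' log2 intensity. Open circles are IgG and filled triangles B29, coloured by diameter class, and points of different genes come from different probes and are not comparable. In most rows circles and triangles mix, while Tyms and Mki67 (8.33% of members, against 9.11% of all probes) show none of that overlap.

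Within a class, 1 array stood against 1, so ratios carry no test. On the authors' scale no member differed by 2-fold in any class, against 0.596%, 0.475% and 0.925% of the probes detected on either array, from the smallest class to the largest. This count depends on the scale. With 1 added in place of 16, it was 2 of 23 under 100 µm (Mcm2 and Tk1), against 6.38% of probes. It was 1 of 24 at 100 to 200 µm (Pcna, not detected on the IgG array), against 3.35%, and 1 of 23 over 200 µm (Cenpa), against 5.01%. With median centring it was 0, 0 and 1 (Cenpa), against 0.571%, 0.499% and 1.06% of probes. A lower limit of 1.5-fold, chosen after the values were seen, was passed in either direction by 1 of 23 members under 100 µm (Mcm2, 6.29% of probes). It was passed by 1 of 24 at 100 to 200 µm (Mcm4, 3.57% of probes) and by 3 of 23 over 200 µm (Tyms, Prc1 and Cenpa, 6.24% of probes).

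The over 200 µm pair held the widest gap. Cenpa, the histone that marks centromeres, stood at 7.24 with IgG and 6.31 with B29, a log2 ratio of -0.93. Its IgG levels were 6.28, 6.70 and 7.24 with increasing diameter and its B29 levels 6.56, 6.92 and 6.31, so the 2 antibodies differed the other way in both smaller classes (0.29 and 0.22). Over the 3 classes the fitted ratio was -0.14 (SE 0.23). It was 0.25 without either over 200 µm array. Prc1, which bundles the microtubules of the central spindle, was level at 6.34, 6.32 and 6.36 with IgG. With B29 it stood at 6.07, 6.42 and 5.65, and the over 200 µm array was the lowest of the 6. Its fitted ratio was -0.29 (SE 0.17, adjusted p 0.969 by limma).

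The same pair differed most in exocrine transcripts. The summed intensity of 14 of 15 listed acinar cell markers was 24569 on the IgG array and 2576 on the B29 array of the over 200 µm class. It was 118823 and 132999 under 100 µm, and 34109 and 47181 at 100 to 200 µm. The part of acinar RNA in the ratios of Cenpa, Prc1 and Tyms was not tested.

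**Figure D3:**
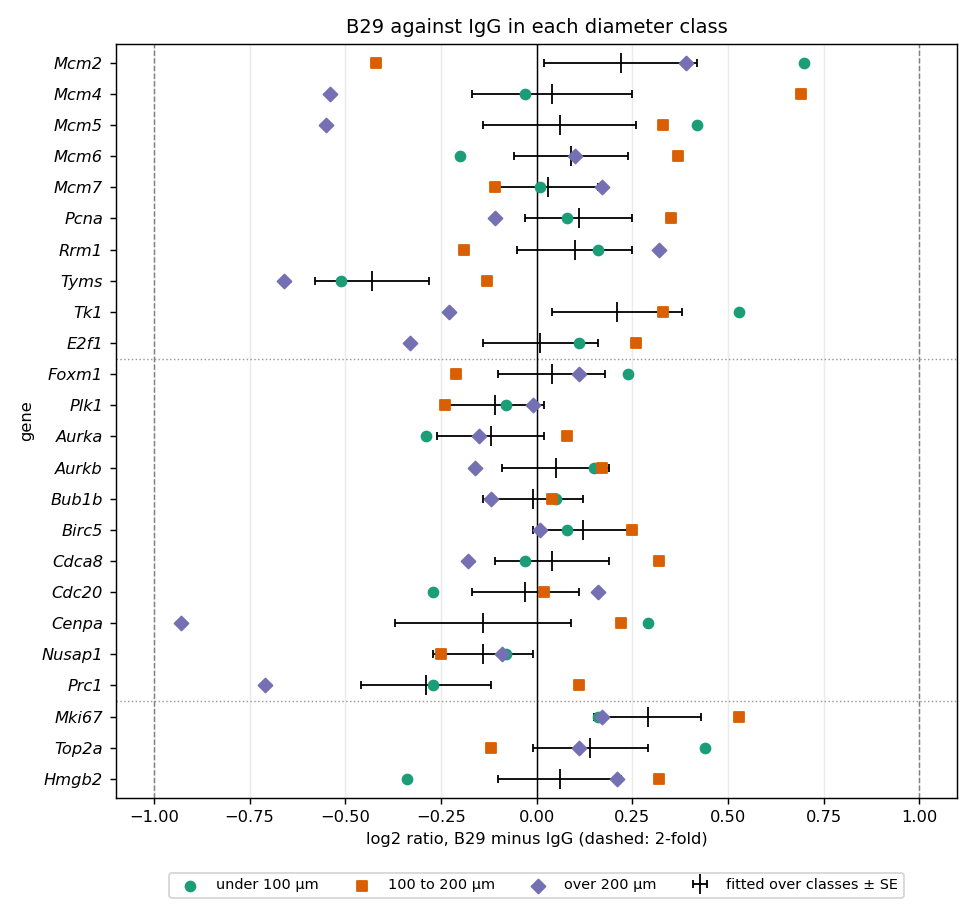
B29 minus IgG log2 ratio of each measured gene within each diameter class (coloured points) and as fitted over the classes with its standard error (black bars). Dashed lines mark 2-fold. Cenpa over 200 µm lies lowest at -0.93, and Tyms is the gene whose 3 points lie farthest below 0 together. Pcna and Aurkb include arrays on which they were not detected.

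Diameter classes were compared in the same fit. The classes also differed in acinar transcripts. The 14 measured acinar markers had a median log2 ratio of -4.4 for over 200 µm against under 100 µm. It was -2.06 for 100 to 200 µm against under 100 µm and -2.42 for over 200 µm against 100 to 200 µm. The part of acinar RNA in the size ratios of the members was not tested. Over 200 µm against under 100 µm, 0 of 24 members passed an adjusted p of 0.05, against 0.531% of probes, and 2 passed an unadjusted p of 0.05 (8.33%, against 10.4% of probes). These were Tyms, with a log2 ratio of -0.52 (SE 0.18, adjusted p 0.352 by limma), and Mcm4, with -0.60 (SE 0.26, adjusted p 0.475 by limma). Mcm4 stood at 6.97 with IgG and 6.93 with B29 in islets under 100 µm. It stood at 6.62 and 6.08 over 200 µm, and at 6.04 and 6.73 between. Both arrays of the smallest islets were therefore the highest of the 6, while the other 4 mixed.

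Rrm1, Cenpa and Top2a had the highest ratios and pointed the other way, while Birc5 was lower in the larger islets. Rrm1 had a log2 ratio of 0.36 (SE 0.18), with IgG levels of 4.81, 5.17 and 5.09 and B29 levels of 4.97, 4.98 and 5.41 in order of diameter. A dimmer Rrm1 probe, detected on 2 arrays, gave -0.06 and did not share this rise. Top2a, which untangles DNA, had 0.34 (SE 0.18), with its lowest level, 4.56, on the IgG array under 100 µm. Birc5, also called survivin, had -0.35 (SE 0.16), with levels of 5.15 and 5.23 in the smallest islets and 4.83 and 4.85 in the largest. Its other measured probes gave -0.12 and -0.39. Cenpa had 0.35 (SE 0.28), with 0.96 between the IgG arrays and -0.25 between the B29 arrays. Rrm1, Top2a, Birc5 and Cenpa did not pass the limma test (adjusted p 0.550, 0.585, 0.504 and 0.723). Over the 24 genes the median was 0.07, against 0.02 over all probes, and 14 were above 0 (58.3%, against 53.1% of probes). The median was -0.06 without the over 200 µm IgG array.

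For 100 to 200 µm against under 100 µm, 0 of 24 members passed the adjusted threshold, against 0.0835% of probes, and 1 passed an unadjusted p of 0.05 (4.17%, against 5.96% of probes). This was the helicase subunit Mcm7, with a log2 ratio of 0.45 (SE 0.16, unadjusted p 0.0211, adjusted p 0.688 by limma). Its levels were 4.46 and 4.47 under 100 µm and 4.97 and 4.87 at 100 to 200 µm, and it was not detected on the under 100 µm IgG array. Top2a had 0.41 (SE 0.18) and the kinase Plk1 0.33 (SE 0.16), with levels of 4.92 and 4.84 in the smallest islets and 5.33 and 5.10 in the middle class.

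In this comparison 19 of 24 members (79.2%) lay above 0, against 52.1% of probes, with a median of 0.15 against 0.01. With median centring it was 15 of 24 with a median of 0.06, against -0.03 over all probes. On the authors' values, 10 of 11 mitotic genes lay above 0, all but Birc5, with Nusap1 at 0.00. The IgG arrays alone gave a median of 0.08 with 14 of 24 above 0, and the B29 arrays alone 0.17 with 18 of 24. The B29 array of 100 to 200 µm had the highest sums of B and plasma cell, pan-leukocyte and macrophage markers. Without that array the fitted median was 0.05 with 14 of 24 above 0. That array was the highest of the 6 for 8 members and the lowest for 0, whereas the under 100 µm IgG array was the lowest for 10.

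Over 200 µm against 100 to 200 µm, 0 of 24 members and 0.0% of probes passed the adjusted threshold by limma. At an unadjusted p of 0.05 it was 0 members and 4.83% of probes. Only 4 of the 24 (16.7%) were above 0, against 52.3% of probes, and 20 were below, with a median of -0.08 against 0.01 over all probes. This comparison shares its 100 to 200 µm arrays with the one before. With IgG, 12 of 24 were below 0 (median 0.00), and with B29, 19 of 24 (median -0.22). Without the 100 to 200 µm B29 array, 14 of 24 were below 0 and the median was -0.03.

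**Figure D4:**
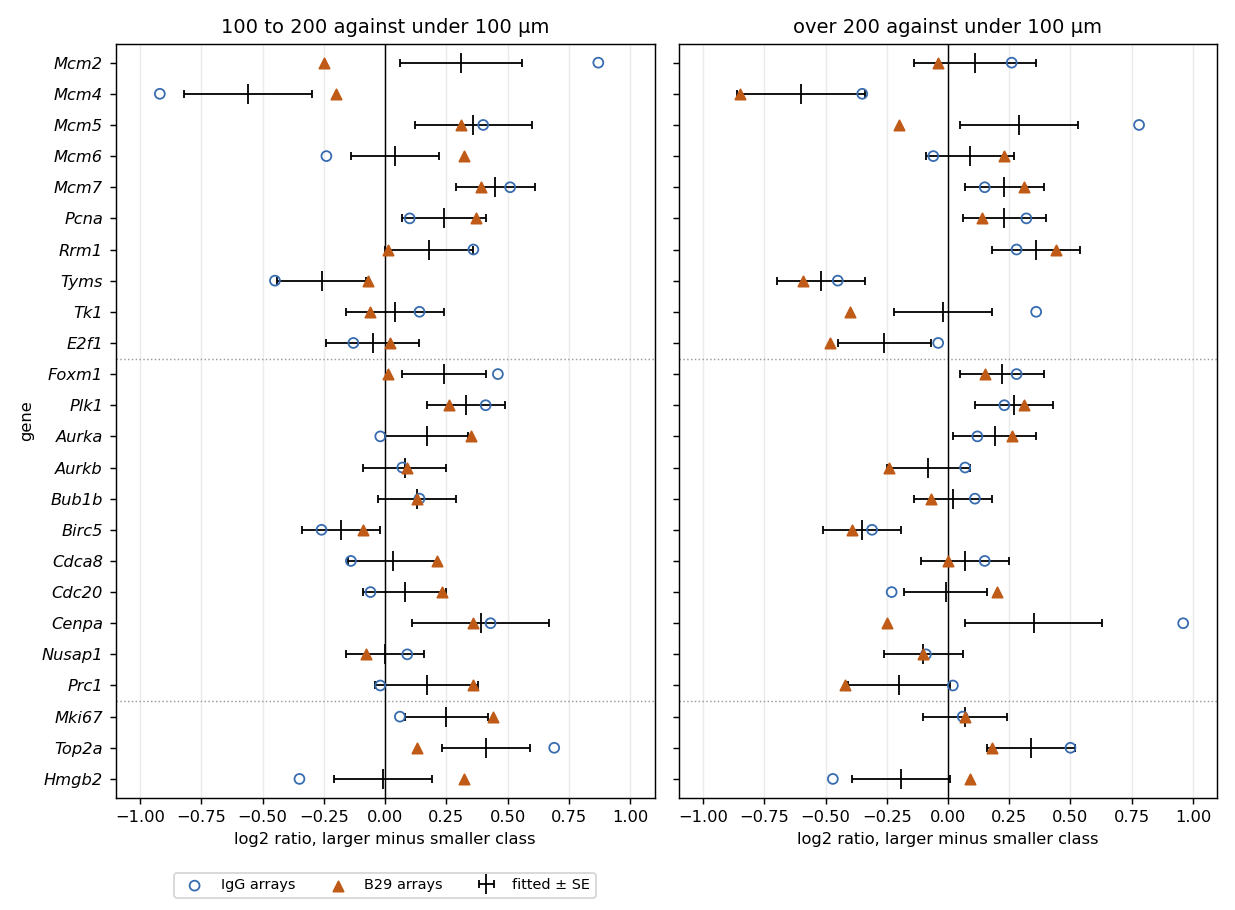
Log2 ratio of each measured gene between diameter classes, for 100 to 200 µm (left) and over 200 µm (right) against under 100 µm. Open circles are IgG arrays, triangles B29 arrays and black bars the fitted value with its standard error. Mcm4, Tyms and Birc5 lie below 0 with both antibodies in both panels, and Mcm7, Plk1 and Top2a are among those above 0.

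Where a gene had several measured probes, they could be set against each other. The 6 such genes were Mcm6, Rrm1, Foxm1, Bub1b, Birc5 and Cdc20. Their lesser probes gave 24 B29 against IgG ratios within classes, and 10 of these (41.7%) had the sign of the main probe. Cdc20, whose product activates the anaphase-promoting complex, gave log2 ratios of -0.27, 0.48 and -0.70 from its 3 probes in islets under 100 µm. Birc5 gave 0.01, -0.57 and 0.23 over 200 µm.

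A further 72 cell division genes were listed, from origin factors to condensins. Of these, 70 had a probe and 41 were measured. In each of the 4 comparisons 0 rose and 0 fell at the adjusted threshold by limma. Their medians were 0.00 for B29 against IgG, -0.03 for over 200 µm and 0.06 for 100 to 200 µm against under 100 µm, and -0.09 for over 200 µm against 100 to 200 µm. The highest fitted B29 minus IgG ratio among them was that of Cdk2, the kinase partner of the E and A cyclins, at 0.56 (SE 0.13, unadjusted p 0.0023, adjusted p 0.966 by limma). Its IgG levels were 5.33, 5.21 and 4.97 and its B29 levels 5.73, 5.83 and 5.64 by diameter, so the antibodies did not overlap. Such a separation, in 1 direction or the other, was shown by 9.11% of all probes. Other genes of the list showed it too, among them Mybl2 in the opposite direction. At an unadjusted p under 0.05 by limma, 2 of the 41 passed, Cdk2 and Cdt1, against 4.67% of all probes. Cdt1, which loads the MCM helicase, was next at 0.41 (SE 0.13), with IgG levels of 4.80, 4.81 and 4.69 and B29 levels of 5.09, 5.28 and 5.17. Mybl2, which works with MuvB at late cell cycle promoters, was lowest at -0.28 (SE 0.13). Among size differences, Gins1, of the replication fork, had -0.61 (SE 0.16, adjusted p 0.448 by limma) at 100 to 200 µm against under 100 µm.

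As a check of the tissue, 9 of 11 listed beta cell genes were measured, and their summed intensity was 24963 to 30850 on the 6 arrays. The brightest, Ins2, stood at 13.97 on the B29 array under 100 µm and at 14.2 on every other array. Other genes held the same values. The acinar gene Cela2a stood at 14.2 on that B29 array, and Gcg at 13.97 on both arrays over 200 µm. The normalization gives all arrays 1 shared set of values, so values this high show rank and not a measured constancy or drop of Ins2. The sum includes Ins2. Iapp had a fitted log2 ratio of 1.19 (SE 0.16, adjusted p 0.0185 by limma) for over 200 µm against under 100 µm. The sum shows beta cell RNA on every array but does not measure its share. Probes detected per array ranged from 14800 to 15914 of 45259. The number of arrays, 1 per antibody and class, limits the precision of every value above.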

How the data were processed

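Labelled RNA from islets was hybridised to 6 Illumina bead arrays, 1 per antibody and diameter class. The deposited raw table holds raw intensities and detection p-values. The intensities were neither background-corrected nor scaled to each other, judging by the numbers. The authors' deposited log2 values were made with limma 3.34.9, per the submitters' processing notes, which name no function. Applying neqc of limma 3.58.1 (R 4.3.3, offset 16) to the deposited intensities gave the authors' log2 values to within 0.00037. Of 46255 rows, 974 were controls and 22 held words in place of a signal, none of them of a member.

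Probes with a detection p under 0.05 on at least 2 arrays were tested (16774). A single additive limma fit (lmFit, eBayes) on antibody and diameter class, with 2 residual and 6.6 prior degrees of freedom, gave ratios, standard errors and p-values, adjusted over all probes by the Benjamini-Hochberg method. The script was tested on simulated data. Gene names came from the platform's probe table updated through RefSeq. The members, lists, roles and motifs were chosen with earlier results of these data known. Genes of the cell division list were named where they were among its 3 highest or 3 lowest ratios in a comparison. Summed intensities of marker lists are sums of normalized values on the linear scale.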

Additional observations from a re-analysis of the deposited data

How the results depend on the processing

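In none of the alternatives run did a member pass the adjusted threshold (20 settings for B29 against IgG, 17 for each size comparison). These settings are not all distinct. For B29 against IgG, leaving out either array of a class or both gave the same ratios. The neqc setting repeats the authors' values to within 0.00037. The lowest adjusted p of any member was 0.669 for B29 against IgG, 0.0692 for over 200 against under 100 µm, 0.337 for 100 to 200 against under 100 µm and 0.444 for over 200 against 100 to 200 µm. The members' median for 100 to 200 against under 100 µm, 0.15, was 0.06 with median centring, 0.05 without background correction, 0.07 with an offset of 50 and 0.25 with an offset of 1, and 0.05 to 0.17 with 1 array left out. The median for over 200 against under 100 µm, 0.07, was -0.06 to 0.12 with 1 array left out, and that for B29 against IgG, 0.04, was -0.05 to 0.11. With an offset of 1, which was chosen after the data were seen, 2 members were 2-fold apart under 100 µm, 1 at 100 to 200 µm and 1 over 200 µm, and with median centring 1 was over 200 µm. The causes were not tested. Of 1692 recomputed log2 ratios of single members, repeats included, 43 left their side of 0 and moved by at least their standard error, and none was called. The fit compares the antibodies within each class, and with the class left out 0 members passed either. Signals close to those of control rows limit what these probes can resolve.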

Other observations

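Of the 24 measured members, 6 had a mean log2 level above 6, a limit chosen after the values were seen: E2f1, Cenpa, Mcm4, Mcm5, Prc1 and Tyms. In islets over 200 µm all 6 were lower with B29, with log2 ratios of -0.93 to -0.33 and a median of -0.61. Their medians were 0.04 under 100 µm and 0.24 at 100 to 200 µm. The other 18 members had a median of 0.05 over 200 µm, with 8 lower. Of the 6396 tested probes with a mean above 6, 46.3% were lower with B29 over 200 µm, with a median of 0.03. This pair of arrays is the one that differed in acinar transcripts, and the 6 genes were not tested as a set.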
